A study of Mus musculus with 3 samples.

Results

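Col13a1 alveolar fibroblasts are the stromal cells of the lung that lie in the walls of the air sacs. Here they were taken as the cells with at least 2 of the 5 fibroblast genes Pdgfra, Col1a1, Col1a2, Col3a1 and Dcn above 0, with none of Ptprc, Pecam1, Epcam, Msln and Myh11 above 0, and with Col13a1, a transmembrane collagen gene, above 0. By this rule 226 of 19622 lung cells were members. The 129 cells that met the first 2 conditions but had Col13a1 at 0, so that the whole fibroblast gate held 355 cells, are called Col13a1-negative fibroblasts and serve for comparison. The cells were thus chosen by the measured values of Col13a1 and the genes of the gate, whose levels are a description and support nothing.

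The cells came from the lungs of female wild-type C57BL6/J mice, 1 mouse per condition, whose thorax had received 13 Gy 5 months before collection. The CONV mouse was irradiated at conventional dose rate and the FLASH mouse at ultra-high dose rate. The CONV AsiDNA mouse was irradiated at conventional dose rate and had received AsiDNA, a short DNA duplex that imitates a double-strand break, at 100 mg/kg on each of the earlier days and at 200 mg/kg on the day of irradiation. All 3 mice were therefore irradiated, unirradiated libraries were not analysed here, and the 3 labels carry one common date. With 1 mouse per condition no difference between conditions could be tested, and the animal, the library and the treatment cannot be told apart. Every interval below is an exact Clopper-Pearson 95% interval, which covers the sampling of cells from 1 lung and not the spread between mice. Many genes with intervals below were named because they stood far apart in these same cells. For such genes, intervals that do not overlap are a description and support no difference.

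Alveolar fibroblasts hold the elastic scaffold of the air sac, store vitamin A and lipid, and send growth factors to the epithelial cells above them. Adventitial fibroblasts lie in the cuffs around vessels and airways and carry a different set of matrix genes. After irradiation of the lung, fibroblasts can take on contractile and matrix-forming programmes, which is why the study looked at them. Per the labels, the cells were freed with dispase and elastase under warming.

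For every gene and cell the authors deposited a natural logarithm, taken of a whole number plus 1. The whole number is called the adjusted count here, since its totals per cell spanned a narrow range. A level is the sum of a gene over the members of a library scaled to 1000000 of their summed adjusted counts (adjusted CPM). A log2 ratio compares levels after 10 was added to each, which understates the difference of low genes, and a gene was called apart at a difference of at least 2-fold on that scale. A single adjusted count equals 6.57 adjusted CPM in CONV against 3.29 in CONV AsiDNA and 1.99 in FLASH, so low values in CONV rest on few counts.

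The members were scarcest in CONV. They numbered 35 of 6372 cells in CONV, a share of 0.549% (0.383 to 0.763). In CONV AsiDNA they numbered 70 of 6983 cells, a share of 1.00% (0.782 to 1.26). In FLASH they numbered 121 of 6267 cells, a share of 1.93% (1.60 to 2.30). The 3 intervals do not overlap, but those of CONV and CONV AsiDNA do when Col13a1 of at least 2 is asked for. Among all cells in the fibroblast gate the Col13a1-positive share was 55.6% (42.5 to 68.1) in CONV against 60.9% (51.3 to 69.8) in CONV AsiDNA, with 68.4% (61.0 to 75.1) in FLASH, so that the intervals overlap. The order of the libraries thus holds for the gate as a whole. The gate held 63 cells in CONV against 115 in CONV AsiDNA and 177 in FLASH.

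**Figure D1:**
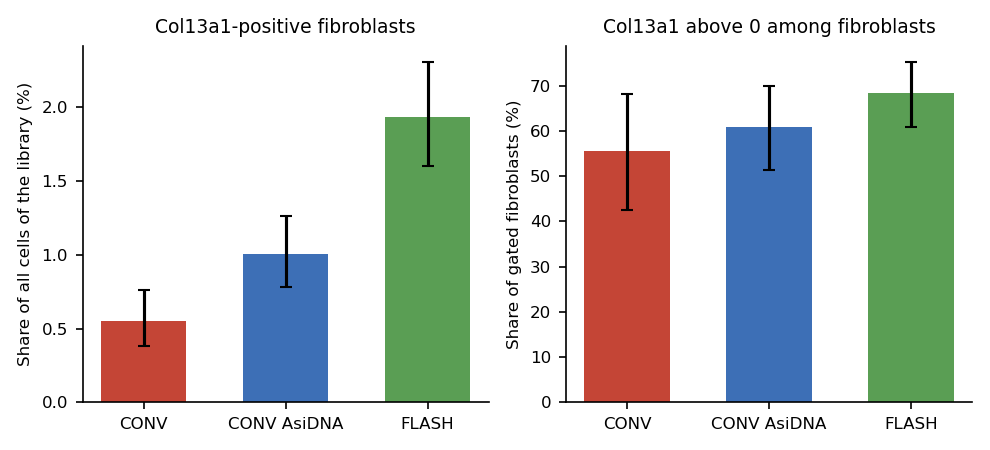
Bars give the share (%) of Col13a1-positive fibroblasts among all cells of a library (left) and among the cells of the fibroblast gate (right), and error bars are exact 95% intervals that cover the sampling of cells only. The share of all cells is 0.549% in CONV against 1.00% in CONV AsiDNA and 1.93% in FLASH, whereas the shares within the gate have overlapping intervals.

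The members were of similar depth in the 3 libraries. The median adjusted count per member was 4333 in CONV against 4158.5 in CONV AsiDNA and 4041 in FLASH, with a median of 1863, 1826.5 and 1754 genes above 0. Their summed counts were 152126, 303587 and 502680 in that order. Col13a1 stood at exactly 1 in 10, 29 and 23 members and at 2 or more in 25, 41 and 98. Just inside the threshold, 1 member of CONV and 2 of FLASH had exactly 2 fibroblast genes above 0. Just outside it, 1 cell of FLASH had Col13a1 and a single fibroblast gene. The median mitochondrial share was 0.312% in CONV against 0.392% in CONV AsiDNA and 0.781% in FLASH. These shares cannot be compared between libraries, since 6 of 13 mitochondrial genes were listed at 0 in CONV and 6 in CONV AsiDNA but 0 in FLASH. Between 9 and 17 cell barcodes were shared by any pair of libraries, none of them a member in both. In cells above 0 for the B cell gene Cd79a, which should lack fibroblast genes, Col13a1 was at 0 throughout (1337 such cells in the CONV library, 1598 in CONV AsiDNA, 1179 in FLASH), at median adjusted counts of 2830, 2963.5 and 3056.

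The label was checked against other markers of the cell type. All 24 genes of an alveolar fibroblast list were above 0 in every library, and the median member had 20 of them above 0 in CONV against 18 in CONV AsiDNA and 20 in FLASH. The list and these medians count Col13a1, which is above 0 in every member by the rule, and Pdgfra, a gene of the gate, so the check rests on the other genes. Tcf21, a transcription factor of the lipid-bearing fibroblasts of the lung, stood at 401 adjusted CPM in CONV against 632 in CONV AsiDNA and 670 in FLASH, and was above 0 in 77.1%, 80.0% and 85.1% of members. Inmt, a methyltransferase, stood at 5910, 5725 and 8122 adjusted CPM. Npnt (GRCm38 chr3:132881745-132950291, minus strand), which encodes the integrin ligand nephronectin of the alveolar wall, stood at 3346, 3228 and 4219 adjusted CPM.

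Epithelial, leukocyte and endothelial markers were listed at 0 in nearly all members, although a listed 0 is not read as absence here. All 13 epithelial genes were listed at 0 in the members of the 3 libraries. Of 14 leukocyte genes, 1 was above 0 in a single member of FLASH, and of 11 endothelial genes, 1 was above 0 in a single member of CONV AsiDNA. The defining mesothelial genes Upk3b, Lrrn4 and Wt1 were at 0, but any of the 8 mesothelial genes was above 0 in 24, 20 and 75 members, at a summed level of 283, 115 and 257 adjusted CPM that came mostly from Upk1b. Pericyte and smooth muscle genes were partly present, in 30, 41 and 85 members, with 7 of 14 at 0 in CONV against 5 in CONV AsiDNA and 6 in FLASH, and a summed level of 440, 237 and 372 adjusted CPM. Pairs of cells in a droplet were looked for with 9 genes of other lineages, any of which was above 0 in 3 members of CONV against 2 of CONV AsiDNA and 8 of FLASH.

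Within each library, the Col13a1-positive cells stood above the Col13a1-negative ones in genes of alveolar fibroblasts other than the gene of the rule. Across 2661 genes, 27.5% were higher than in the Col13a1-negative fibroblasts in all 3 libraries and 28.6% were lower in all 3. At least 2-fold, 115 genes (4.32%) were higher in all 3 and 56 (2.1%) lower. Of the 23 alveolar list genes compared, 21 were higher in all 3 libraries, including Col13a1, which the rule fixed. The exceptions were Adh1 and Gpc3. The median log2 ratio of this list over the Col13a1-negative cells was 1.71 in CONV, with 1.79 in CONV AsiDNA and 2.07 in FLASH.

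The genes farthest above were of varied kinds. Npnt was higher by log2 ratios of 3.52, 2.90 and 2.89, given here and below in the order CONV, CONV AsiDNA, FLASH. Slc7a10, an amino acid exchanger, was higher by 2.71, 3.09 and 2.81. Ces1d, a carboxylesterase, was higher by 2.65, 3.38 and 2.80. These 3 genes belong to the alveolar list. Lrat, which esterifies vitamin A for storage, was higher by 2.24, 2.29 and 2.82. Hsd11b1, which turns inactive glucocorticoid into its active form, was higher by 2.53, 2.42 and 2.20. Mme, a membrane peptidase, was higher by 2.26, 2.40 and 2.93. Scube2 (3.43, 3.59 and 2.75), Gyg, the primer of glycogen synthesis (2.17, 2.53 and 2.33), and the cytoskeletal linker Macf1 (2.60, 2.31 and 2.10) complete the genes named by the rule. Of 6 genes of retinoid handling compared, 2 were higher in all 3 libraries and 1 lower in all 3, against 27.5% and 28.6% of all genes. Aldh1a1, which makes retinoic acid, was higher by 1.91, 2.45 and 2.56.

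Genes of adventitial and other stroma were lower in the members. Of 14 adventitial list genes compared, 11 were lower in all 3 libraries, with a median log2 ratio of -1.69, -1.59 and -2.72. Genes listed at 0 in the members of a library enter these counts and medians with the 10 that is added, and are given here by level and not by ratio. Ccl11, a chemokine for eosinophils, stood at 19.7 and 3.29 adjusted CPM in the members of CONV and CONV AsiDNA and was listed at 0 in those of FLASH, against 416, 596 and 310 in the Col13a1-negative cells. Lum, a collagen-binding proteoglycan, was listed at 0 in FLASH and stood at 13.1 in CONV and 46.1 in CONV AsiDNA, against 345, 417 and 488. Has1, a hyaluronan synthase, was listed at 0 in CONV and stood at 39.5 and 25.9 in the others, against 133, 379 and 237. The members thus held few counts of these 3 genes in the libraries where they were above 0, and a listed 0 is not read as absence. Igfbp5, a binding protein of insulin-like growth factors, stood at 19.7, 52.7 and 5.97 against 565, 379 and 1703. Ly6a, a surface protein of adventitial fibroblasts, stood at 6.57, 88.9 and 29.8 against 173, 623 and 315. An exception within the adventitial list was Pcolce2, an enhancer of procollagen cleavage, which was higher in the members by 1.14, 0.56 and 0.94. Upk1b, counted in the mesothelial list, was also higher, by 4.0, 1.56 and 2.37, and its level in members was 276, 115 and 255 adjusted CPM.

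**Figure D2:**
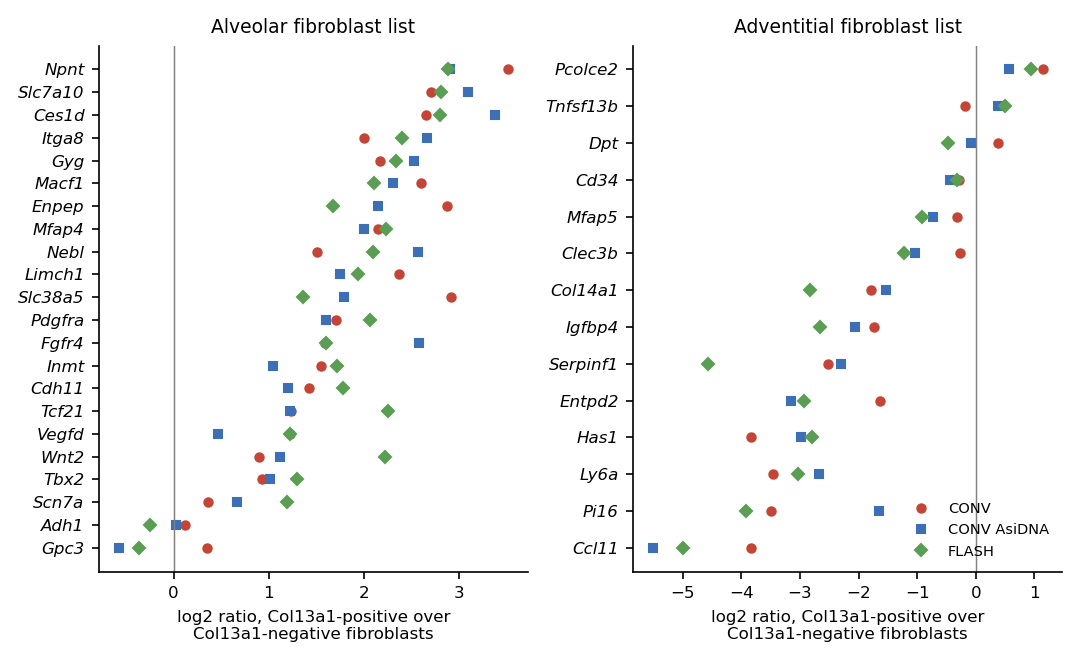
Each point is the log2 ratio of 1 gene between Col13a1-positive and Col13a1-negative fibroblasts of 1 library, with 10 added to each adjusted CPM, for the alveolar list without Col13a1 and for the adventitial list. Most alveolar genes lie above 0 and most adventitial genes below 0 in each of the 3 libraries, with the adventitial genes lowest in FLASH (median -2.72). Points of genes listed at 0 in the members of a library, such as Ccl11 in FLASH and Has1 in CONV, rest on the added 10.

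Across conditions, 5859 genes could be compared in the members. CONV stood apart from both other libraries more often than these did from each other. Against CONV AsiDNA, 369 genes (6.3%) were at least 2-fold higher in CONV and 540 (9.22%) at least 2-fold lower. Against FLASH, 357 (6.09%) were higher in CONV and 566 (9.66%) lower. Between CONV AsiDNA and FLASH, 195 (3.33%) were higher in CONV AsiDNA and 220 (3.75%) lower. CONV also had the fewest members (35), and the part of that number in these counts was not tested. The median log2 ratio of all genes was -0.08 for CONV over CONV AsiDNA, -0.10 for CONV over FLASH and -0.04 for CONV AsiDNA over FLASH. Scaled so that these medians are 0, the split of CONV over FLASH was 445 higher and 456 lower. Against CONV AsiDNA it was then 415 and 488. With a minimum sum of 50, 88 genes were higher and 317 lower in CONV than in CONV AsiDNA, and 102 higher and 322 lower than in FLASH. CONV AsiDNA then had 75 higher and 74 lower than FLASH. With no minimum sum the split of CONV turned, with 832 higher and 592 lower than in CONV AsiDNA and 860 higher and 600 lower than in FLASH. The comparisons of CONV with either library share the CONV cells, so a gene apart in both rests on 1 mouse.

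The immediate early genes, transcription factors and feedback genes that switch on within minutes of a stimulus, were lower in CONV. Fos (GRCm38 chr12:85473890-85477273, plus strand) stood at 1196 adjusted CPM in CONV against 3917 in CONV AsiDNA and 3678 in FLASH, and was above 0 in 31.4%, 55.7% and 66.1% of members. Fosb, its close relative, stood at 539, 1548 and 1655 adjusted CPM. Its share in CONV, 25.7% (12.5 to 43.3), had an interval below that in CONV AsiDNA, 57.1% (44.7 to 68.9), and that in FLASH, 64.5% (55.2 to 73.0). Jun, the partner of Fos in AP-1, stood at 1735, 3801 and 4102 adjusted CPM. Zfp36, which destabilises messages of cytokines, stood at 316, 804 and 967.

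Klf6 (GRCm38 chr13:5861482-5870394, plus strand), a zinc finger transcription factor of injury responses, differed most of this list. Its level was 46.0 adjusted CPM in CONV against 501 in CONV AsiDNA and 605 in FLASH. It was above 0 in 14.3% (4.81 to 30.3), 57.1% (44.7 to 68.9) and 55.4% (46.1 to 64.4) of members, so that the interval of CONV lies below both others. On the log2 scale CONV lay at -3.19 relative to CONV AsiDNA and at -3.46 relative to FLASH.

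Of 21 immediate early genes compared, 21 were lower in CONV than in CONV AsiDNA, 16 of them at least 2-fold (9.22% of all genes were), and the median log2 ratio was -1.19. Against FLASH 18 were lower, 13 at least 2-fold (9.66% of all genes were), with a median of -1.24. Between CONV AsiDNA and FLASH, 11 genes were higher in CONV AsiDNA and 10 lower, with a median of 0.01. The 3 genes that were higher in CONV than in FLASH were Ier3 (0.68), Ier5 (1.01) and Socs3 (0.53).

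The list varied widely from cell to cell within each library. Per member, its sum per 10000 adjusted counts reached a median of 28.1 in CONV (from 2.48 up to 546), against 139 in CONV AsiDNA (up to 774) and 188 in FLASH (up to 748). The ranges overlap widely, and each library held members with almost none of these genes. None of Fos, Fosb, Jun and Junb was above 0 in 17 of 35 members of CONV against 14 of 70 of CONV AsiDNA and 24 of 121 of FLASH. All 4 were above 0 in 8, 32 and 70 members. At least 3 were above 0 in 28.6% (14.6 to 46.3) of members in CONV against 54.3% (41.9 to 66.3) in CONV AsiDNA, and FLASH had 66.1% (57.0 to 74.5). The interval of CONV overlaps that of CONV AsiDNA and lies below that of FLASH.

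Heat shock genes, whose products fold and protect proteins, were lower in CONV as well. Hspa8 (GRCm38 chr9:40800984-40810087, plus strand), the constitutive HSP70, stood at 78.9 adjusted CPM in CONV against 494 in CONV AsiDNA and 382 in FLASH. It was above 0 in 28.6% (14.6 to 46.3), 70.0% (57.9 to 80.4) and 60.3% (51.0 to 69.1) of members, with the interval of CONV below both others. Hsp90ab1, the constitutive HSP90, stood at 263, 738 and 722 adjusted CPM. Dnaja1, a co-chaperone of HSP70, stood at 217, 570 and 481. Hspb1, a small heat shock protein, stood at 605, 1117 and 1856. Hspa1a, the inducible HSP70, stood at 105, 362 and 342, but its reads are shared with the near-identical Hspa1b, so the division between the pair is uncertain. Hspe1, a mitochondrial co-chaperonin, differed little at 72.3, 92.2 and 83.6.

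Of 14 heat shock genes compared, 14 were lower in CONV than in CONV AsiDNA, 7 at least 2-fold (9.22% of all genes were), with a median log2 ratio of -0.98. Against FLASH 13 were lower, 8 at least 2-fold (9.66% of all genes were), with a median of -1.13. Between CONV AsiDNA and FLASH the median was 0.14. Per member, the sum of this list per 10000 adjusted counts reached a median of 25.6 in CONV (from 8.80 up to 52.8), against 54.7 in CONV AsiDNA (from 14.5 up to 158) and 56.5 in FLASH (from 4.90 up to 193). The highest member of CONV lay below the median member of the other libraries.

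Many heat shock genes are known to carry upstream elements to which the factor HSF1 binds, and 4 stretches are shown because most genes of the list were lower in CONV. In the RefSeq promoter sequences of GRCm38.p6, from 250 bases upstream of the start, the core GAANNTTC was searched for, a palindrome that reads the same on both strands. The core counted as present when any promoter sequence of a gene held it, and some genes have several, as Dnaja1 with 3 and Hspd1 with 2. It was present for 6 of 11 heat shock genes with a sequence (54.5%), for 1 of 20 immediate early genes (5.00%) and for 2088 of 27025 genes in all (7.73%). The capitals mark the core. A match is only a description of the letters, and no binding was measured. The stretches are Hspa1a at chr17:34972197-34972316 (minus strand), which Hspa1b at chr17:34959279-34959398 repeats base for base, Dnaja1 at chr4:40722288-40722407 (plus), Hspb1 at chr5:135887756-135887875 (plus) and Hspe1 at chr1:55088008-55088127 (plus), a stretch that is read on the other strand for Hspd1. For Dnaja1 and Hspd1 the stretch lies within the GENCODE bounds of the gene, upstream of an alternative start.
Hspa1a: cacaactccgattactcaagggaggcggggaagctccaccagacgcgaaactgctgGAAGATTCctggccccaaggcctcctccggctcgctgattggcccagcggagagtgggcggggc
Dnaja1: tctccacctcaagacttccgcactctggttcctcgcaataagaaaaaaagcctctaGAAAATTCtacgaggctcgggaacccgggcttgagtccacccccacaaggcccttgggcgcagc
Hspb1: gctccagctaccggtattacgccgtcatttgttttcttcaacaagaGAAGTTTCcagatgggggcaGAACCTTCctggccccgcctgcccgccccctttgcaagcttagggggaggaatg
Hspe1: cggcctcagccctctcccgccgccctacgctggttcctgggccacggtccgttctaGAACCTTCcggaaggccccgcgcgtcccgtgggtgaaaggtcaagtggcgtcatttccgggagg

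Of the 6 heat shock genes with a core, 4 were at least 2-fold lower in CONV than in CONV AsiDNA and 5 were at least 2-fold lower than in FLASH (9.22% and 9.66% of all genes were), although Hspa1a and Hspa1b, and Hspe1 and Hspd1, share their stretches. Of 4 compared genes whose sequence holds none, 1 was at least 2-fold lower in either comparison, and that gene was Dnajb4, an HSP40 co-chaperone (-1.02 and -1.14). Among the genes with a core, Hspe1 carries 1 and was at -0.31 on the log2 scale over CONV AsiDNA and at -0.18 over FLASH. Hspb1 carries 2 in the printed stretch and was at -0.87 and -1.60. Hspa1a was at -1.69 and -1.61, Hspa1b at -1.84 and -1.19, Dnaja1 at -1.35 and -1.11, and Hspd1, the mitochondrial chaperonin, at -1.52 and -1.25. Hspa1b is among those called at least 2-fold lower, but its level in CONV, 6.57 adjusted CPM, is a single adjusted count. Its levels in CONV AsiDNA and FLASH were 49.4 and 27.9. Hsph1, of the HSP110 family and without a core, was at -0.61 and -0.68. Bag3, a co-chaperone whose promoter sequence holds no core, was at -0.18 and 0.01, and Hspa5, the HSP70 of the endoplasmic reticulum and also without a core, was at -0.95 and -0.35. In neither group, as they were not among the genes with a sequence, were Hspa8 (-2.50 and -2.14), Hsp90ab1 (-1.45 and -1.42), Hsp90aa1 (-0.75 and -0.60) and Cryab (-0.61 and -0.47).

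The medians of CONV lay nearer to 0 in the other fibroblasts and, for immediate early genes, above 0 in the other lung cells. In Col13a1-negative fibroblasts, 17 of 21 immediate early genes were lower in CONV than in CONV AsiDNA with a median log2 ratio of -0.17, and 17 of 21 were lower than in FLASH with a median of -0.59. At least 2-fold lower were 2 of the 21 against CONV AsiDNA and 3 against FLASH (8.24% and 7.7% of all genes were). In all cells outside the gate the medians were 0.03 and 0.20. Most heat shock genes lay below 0 in CONV in each compartment, fewer of them by 2-fold than in the members. In Col13a1-negative fibroblasts 13 of 15 were lower than in CONV AsiDNA, 3 at least 2-fold (8.24% of all genes were), and 14 lower than in FLASH, 5 at least 2-fold (7.7%), with a median of -0.73 in either case. Outside the gate 14 of 15 were lower in either comparison, 2 at least 2-fold against CONV AsiDNA (0.413% of all genes) and 1 against FLASH (0.55%), with medians of -0.50 and -0.34. All cells of a library went through one dissociation, and its part in these levels was not tested.

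**Figure D3:**
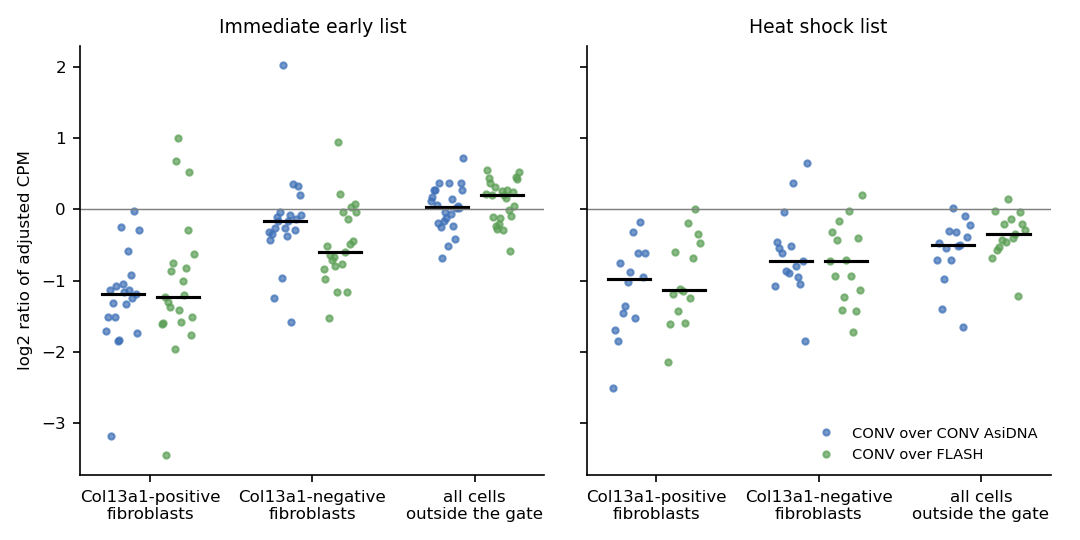
Points are log2 ratios of single genes of the immediate early and heat shock lists for CONV over CONV AsiDNA and CONV over FLASH, in Col13a1-positive fibroblasts, Col13a1-negative fibroblasts and all cells outside the gate, and bars are medians. The immediate early medians in the Col13a1-positive cells are -1.19 and -1.24, against 0.03 and 0.20 outside the gate.

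Tagln, Acta2 and Myl9, genes of the contractile apparatus, were low in CONV, while the lists that hold such genes did not all lie to one side. Tagln (GRCm38 chr9:45929619-45936058, minus strand), the actin-binding transgelin of smooth muscle and myofibroblasts, stood at 39.4 adjusted CPM in CONV against 514 in CONV AsiDNA and 1036 in FLASH. It was above 0 in 11.4% (3.20 to 26.7), 44.3% (32.4 to 56.7) and 76.9% (68.3 to 84.0) of members, and these 3 intervals do not overlap. Tagln was the gene farthest below in CONV, at -3.41 on the log2 scale relative to CONV AsiDNA and at -4.40 relative to FLASH. As it was picked by this rank from the same cells, its intervals are a description only. In the Col13a1-negative fibroblasts its level was 322 adjusted CPM in CONV against 314 in CONV AsiDNA and 972 in FLASH, so there CONV did not lie below CONV AsiDNA. Acta2, smooth muscle actin, stood at 46.0, 273 and 169 adjusted CPM in the members and was above 0 in 8.57%, 24.3% and 13.2%. Myl9, a myosin light chain, stood at 19.7, 105 and 61.7 adjusted CPM. Of 9 genes of the peribronchial and myofibroblast list compared, which holds these 3, 7 were lower in CONV than in CONV AsiDNA (6 at least 2-fold, as were 9.22% of all genes, median log2 ratio -1.11). Against FLASH that list was split, with 4 higher and 5 lower, 3 at least 2-fold in each direction (6.09% of all genes were higher and 9.66% lower), and a median of -0.70. Of 3 pericyte and smooth muscle genes compared, 3 were higher in CONV than in CONV AsiDNA (median 0.67) and 2 higher than in FLASH (median 0.59).

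Of secreted proteins tied to TGF-beta and YAP, Thbs1 and Ccn1 were low in CONV. Thbs1 (GRCm38 chr2:118111876-118127133, plus strand), the matricellular thrombospondin that activates latent TGF-beta, stood at 362, 2846 and 2306 adjusted CPM and was above 0 in 34.3%, 91.4% and 74.4% of members. Ccn1, a matricellular target of YAP, stood at 177, 1515 and 1080 adjusted CPM. Both were lowest in CONV in the Col13a1-negative fibroblasts too, Thbs1 at 220, 807 and 1502 and Ccn1 at 565, 937 and 1023. Smad7, the inhibitory SMAD that TGF-beta switches on, stood at 105, 247 and 253. Ccn2, another target of YAP, was at 375, 455 and 621. The list of TGF-beta and YAP targets as a whole did not lie to one side, with 10 of 15 genes lower in CONV than in CONV AsiDNA (median log2 ratio -0.27) and 7 of 15 lower than in FLASH (median 0.19, and -0.46 with a minimum sum of 50). At least 2-fold, 5 were lower and 2 higher than in CONV AsiDNA (9.22% and 6.3% of all genes were), and 5 lower and 3 higher than in FLASH (9.66% and 6.09%). Of the list, 5 genes were at least 2-fold below both other libraries, as were 5.05% of all genes. Ltbp2 and Id1, which were high in CONV, belong to this list too.

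The other genes farthest below in CONV were of varied kinds. Hes1, a repressor downstream of Notch, stood at 13.1, 158 and 153 adjusted CPM. Tmem100, a membrane protein of the lung downstream of BMP signals, stood at 26.3, 171 and 296. S100a10, the partner of annexin A2, stood at 13.1, 198 and 127. Mbd1, a reader of methylated DNA, stood at 171, 959 and 1104, and at 62.8, 563 and 653 in the Col13a1-negative fibroblasts. Ube2g2, a ubiquitin-conjugating enzyme, was at 6.57, 82.3 and 79.6, the first of which is a single adjusted count, and the unnamed transcript Gm26532 was at 26.3, 168 and 215. In all, 296 genes (5.05%) were at least 2-fold below both other libraries in CONV.

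Outside that list, Ctsb, a lysosomal protease, was above 0 in 25.7% (12.5 to 43.3) of members in CONV against 80.0% (68.7 to 88.6) in CONV AsiDNA, while FLASH had 66.9% (57.8 to 75.2), at 151, 527 and 495 adjusted CPM. Gstm1, a glutathione transferase, stood at 177, 557 and 595 adjusted CPM. CONV was lowest in the Col13a1-negative fibroblasts too, with Ctsb at 62.8, 509 and 278 and Gstm1 at 416, 639 and 726. Of 9 genes of cholesterol synthesis compared, 8 were below CONV AsiDNA in CONV (5 at least 2-fold, as were 9.22% of all genes, median log2 ratio -1.18). Against FLASH they were mixed, with a median of -0.63. There 6 were lower (2 at least 2-fold, as were 9.66% of all genes) and 3 higher (1 at least 2-fold, as were 6.09%). Sc5d, of the last steps of that pathway, stood at 65.7, 161 and 177 adjusted CPM.

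Genes high in CONV included Ltbp2, C6, Lbp and Wnt5a. In all, 141 genes (2.41%) were at least 2-fold above both other libraries. Ltbp2 (GRCm38 chr12:84783212-84876532, minus strand), a microfibril protein of the latent TGF-beta binding protein family, stood at 1170 adjusted CPM in CONV against 109 in CONV AsiDNA and 107 in FLASH. It was above 0 in 29 of 35 members of CONV, a share of 82.9% (66.4 to 93.4). In CONV AsiDNA it was above 0 in 17 members, 24.3% (14.8 to 36.0), and in FLASH in 18 members, 14.9% (9.06 to 22.5). On the log2 scale this was 3.31 above CONV AsiDNA and 3.33 above FLASH, the widest of the genes above both. Ltbp2 was picked by this rank from the same cells, so its intervals are a description only. With every member thinned to 1000 adjusted counts, the shares were 42.9%, 7.14% and 6.61%. Col13a1-negative fibroblasts kept the order of CONV above the other libraries at lower levels of Ltbp2, with 220, 27.1 and 54.8 adjusted CPM.

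Of genes of innate defence, C6 belongs to the complement list and Lbp to none of the lists. C6, a component of the terminal complement complex, stood at 309, 29.6 and 65.6 adjusted CPM and was above 0 in 54.3%, 10.0% and 14.0% of members. Lbp, which binds bacterial lipopolysaccharide, stood at 131, 19.8 and 5.97. C4b, of the classical pathway of complement, stood at 2202, 1189 and 734 adjusted CPM and was above 0 in 97.1% (85.1 to 99.9), 72.9% (60.9 to 82.8) and 56.2% (46.9 to 65.2), so that the interval of CONV lies above both others. Of 11 complement genes compared, 9 were higher in CONV than in CONV AsiDNA (1 at least 2-fold, as were 6.3% of all genes, median log2 ratio 0.57) and 10 higher than in FLASH (4 at least 2-fold, as were 6.09% of all genes, median 0.64). The 1 gene apart from CONV AsiDNA was C6 itself, which does not set this list off from all genes. In Col13a1-negative fibroblasts the medians were -0.20 and 0.20.

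Wnt5a, a ligand of the non-canonical branch, stood at 171 adjusted CPM in CONV against 39.5 in CONV AsiDNA and 33.8 in FLASH, and was above 0 in 51.4% (34.0 to 68.6), 15.7% (8.11 to 26.4) and 9.09% (4.63 to 15.7) of members. Sfrp1, a secreted inhibitor of Wnt, stood at 467, 194 and 97.5 adjusted CPM and was above 0 in 82.9% (66.4 to 93.4), 44.3% (32.4 to 56.7) and 19.8% (13.1 to 28.1). Both genes had the interval of CONV above both others. Sfrp1 was highest in CONV in the Col13a1-negative fibroblasts too, at 549, 228 and 215 adjusted CPM. Wnt5a was not, at 165, 184 and 82.2. Wnt2, a ligand for the alveolar epithelium, stood at 184, 82.3 and 143 adjusted CPM. Tcf7l2, a nuclear effector, was at 138, 49.4 and 65.6. Axin2, a target that reads out canonical signalling, was level at 105, 102 and 107. Of 13 Wnt pathway genes compared, 12 were higher in CONV than in CONV AsiDNA (5 at least 2-fold, as were 6.3% of all genes, median log2 ratio 0.84) and 11 higher than in FLASH (4 at least 2-fold, as were 6.09%, median 0.73). In Col13a1-negative fibroblasts the medians were -0.30 and 0.37.

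Other genes among the farthest above were Tmem178 (164, 19.8 and 3.98 adjusted CPM), the laminin chain gene Lama5 (131, 16.5 and 9.95), the protocadherin gene Pcdh7 (158, 29.6 and 7.96), Scube1 (112, 13.2 and 19.9), the linker histone gene H1f0 (131, 23.1 and 25.9), the prion protein gene Prnp (289, 65.9 and 41.8) and the collagen receptor gene Itga1 (92.0, 13.2 and 15.9). Of alveolar genes, Ces1d was high in CONV at 2025, 827 and 790 adjusted CPM. Eln, the elastin gene, stood at 3596, 1555 and 1512 adjusted CPM. Txnip, an inhibitor of thioredoxin, stood at 624, 175 and 225 and was above 0 in 80.0%, 28.6% and 38.8% of members. The Col13a1-negative fibroblasts had similar levels of Txnip, at 628, 157 and 164. Id1, a target of BMP signals, stood at 151, 39.5 and 37.8.

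**Figure D4:**
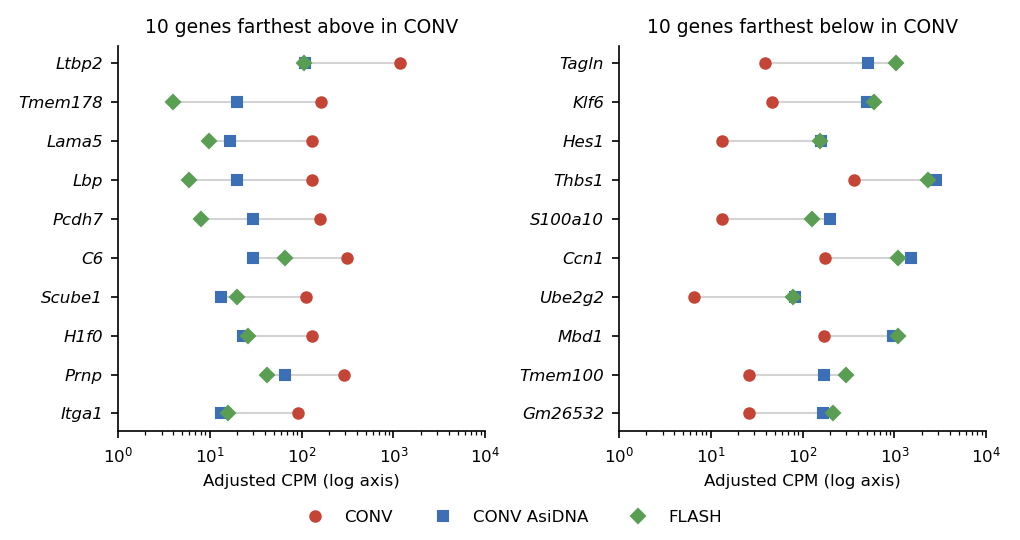
Adjusted CPM (log axis) in each library of the 10 genes that stood highest and the 10 that stood lowest in CONV relative to both other libraries. Ltbp2 stands at 1170 in CONV against 109 and 107, and Tagln at 39.4 in CONV against 514 and 1036.

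Hp (GRCm38 chr8:109575128-109579172, minus strand), the gene of the haemoglobin-binding acute phase protein haptoglobin, split the CONV members. Its values were above 0 in 17 of 35 (48.6%), with adjusted counts of 4 to 60 and a median of 18, and its level over all members of CONV was 2518 adjusted CPM. It was listed at 0 in every member of CONV AsiDNA and FLASH, although cells outside the gate held it in all 3 libraries at 395, 501 and 352 adjusted CPM. How the values were adjusted is not stated in the labels or methods, so a listed 0 is not read as absence and no fold is given. The median adjusted count was 4385 in the members with Hp and 4322 in those without. Ltbp2 was above 0 in 14 of the 17 with Hp and in 15 of the 18 without, so the 2 genes did not mark the same cells. C6 was above 0 in 12 of 17 and 7 of 18. Saa3, another acute phase gene, rested on few cells, with 933 adjusted CPM from 22.9% of members in CONV, 777 from 8.57% in CONV AsiDNA and 53.7 from 3.31% in FLASH. The inflammatory and acute phase list that holds both genes did not lie to one side. Of 12 of its genes compared, 5 were higher and 7 lower in CONV than in CONV AsiDNA, 1 at least 2-fold in each direction (6.3% and 9.22% of all genes were), with a median log2 ratio of -0.22. Against FLASH 7 were higher and 5 lower, 2 and 1 at least 2-fold (6.09% and 9.66%), with a median of 0.32.

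Another 18 genes were listed at 0 in all members of 1 or 2 libraries and above 0 in at least 25% of members of another. Cpm, a membrane carboxypeptidase, was listed at 0 in FLASH, with 355 adjusted CPM in CONV but 26.4 in CONV AsiDNA. Alas1, the first enzyme of haem synthesis, stood at 123 adjusted CPM in FLASH and was listed at 0 in the other libraries. Sec61a1, a subunit of the protein channel of the endoplasmic reticulum that all secreting cells use, was listed at 0 in FLASH with 131 in CONV and 122 in CONV AsiDNA, and mt-Co1, a mitochondrial gene, was listed at 0 in CONV with 2457 in CONV AsiDNA and 4506 in FLASH. As genes that every cell uses are among them, these entries are given as listed and not as differences.

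Genes highest in CONV AsiDNA were fewer, with 63 (1.08%) at least 2-fold above both other libraries and 91 (1.55%) below. Rbp4 (GRCm38 chr19:38116629-38125281, minus strand), the carrier of vitamin A in plasma, stood at 92.0 adjusted CPM in CONV against 464 in CONV AsiDNA and 117 in FLASH, and was above 0 in 14.3% (4.81 to 30.3), 32.9% (22.1 to 45.1) and 8.26% (4.03 to 14.7) of members. The interval of CONV AsiDNA overlaps that of CONV and lies above that of FLASH. On the log2 scale CONV lay at -2.22 relative to CONV AsiDNA, and CONV AsiDNA at 1.90 relative to FLASH. In the Col13a1-negative fibroblasts Rbp4 was highest in FLASH instead, at 70.6, 428 and 557 adjusted CPM. Of 10 genes of retinoid handling compared, Rbp4 included, 9 were higher in CONV AsiDNA than in FLASH, 3 at least 2-fold (3.33% of all genes were), with a median log2 ratio of 0.72, and Aldh1a1 was the exception. Dhrs3, which reduces retinal, stood at 26.3, 115 and 51.7 adjusted CPM, and Rdh10, which makes retinal, at 39.4, 102 and 13.9.

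The other genes farthest above in CONV AsiDNA were of varied kinds. Hyou1, a chaperone of the endoplasmic reticulum, stood at 13.1, 85.6 and 15.9 adjusted CPM. Creld2, a target of stress in that compartment, stood at 19.7, 62.6 and 11.9, and its log2 ratio to the nearer library was 0.82 when members were limited to Col13a1 of at least 2. Mmp3, the protease stromelysin, was carried by few cells, with 329 adjusted CPM from 25.7% of members, 965 from 21.4% and 294 from 10.7%. Apod, a lipid-binding apolipoprotein, stood at 98.6, 356 and 69.6, and Pdpn, the membrane protein podoplanin, at 46.0, 138 and 51.7. The rule also named Rasal2 (13.1, 75.8 and 23.9), B4galt5 (46.0, 132 and 39.8) and Cpne8 (26.3, 79.1 and 19.9).

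Most interferon genes compared were higher in CONV AsiDNA than in either other library. At least 2-fold above both was 1 gene of the list, as were 1.08% of all genes. Of 18 compared, 16 were higher in CONV AsiDNA than in FLASH (4 at least 2-fold, as were 3.33% of all genes, median log2 ratio 0.84). Against CONV AsiDNA, 14 were lower in CONV (7 at least 2-fold, as were 9.22% of all genes, median -0.90). Ifit3, an antiviral effector, stood at 19.7, 145 and 23.9 adjusted CPM, but was above 0 in just 5.71%, 7.14% and 2.48% of members. Iigp1, an interferon-induced GTPase, was spread more evenly, at 296, 744 and 294 adjusted CPM and in 34.3%, 50.0% and 47.9% of members. At least 3 of 7 induced genes (Ifit1, Ifit2, Ifit3, Isg15, Rsad2, Oasl2 and Irf7, chosen after their values were seen) were above 0 in 0 of 35 members of CONV (up to 10.0% by the interval), 7 of 70 of CONV AsiDNA, which is 10.0% (4.12 to 19.5), and 2 of 121 of FLASH, which is 1.65% (0.201 to 5.84). These intervals overlap, and since the 7 genes were picked by their values the counts are a description only. In the Col13a1-negative fibroblasts the whole interferon list lay the other way for CONV, with a median of 0.51 over CONV AsiDNA and 1.32 over FLASH. H2-K1, which presents antigen, was low in FLASH members alone, at 191, 178 and 31.8 adjusted CPM.

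Summed levels of most adventitial genes compared were highest in CONV AsiDNA, but the number of them per member was not. The median member had 7 of the 18 list genes above 0 in CONV against 6 in CONV AsiDNA and 5 in FLASH. Of 13 compared, 12 were higher than in FLASH, 6 at least 2-fold (3.33% of all genes were), with a median log2 ratio of 0.87, and 11 were lower in CONV than in CONV AsiDNA, 3 at least 2-fold (9.22% of all genes were), with a median of -0.30. Pi16, the peptidase inhibitor that marks adventitial fibroblasts, stood at 13.1, 168 and 15.9 adjusted CPM in 5.71%, 15.7% and 2.48% of members. The summed level of the whole adventitial list was 6896, 8205 and 6937 adjusted CPM, and 3, 3 and 4 of its 18 genes were at 0. Of 24 alveolar list genes, Col13a1 and Pdgfra included, 19 were lower in CONV AsiDNA than in FLASH (0 at least 2-fold, as were 3.75% of all genes, median log2 ratio -0.33). Against CONV AsiDNA, 16 were higher in CONV (4 at least 2-fold, as were 6.3%, median 0.18), and the summed level of the alveolar list was 38751, 32063 and 41953 adjusted CPM. The part of adventitial-type members in the differences of CONV AsiDNA was not tested.

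Genes low in CONV AsiDNA included Heph, Gk, Plin2, Retreg1 and Ssh2. Heph, a copper ferroxidase that passes iron out of cells, stood at 177 adjusted CPM in CONV against 19.8 in CONV AsiDNA and 91.5 in FLASH, and was above 0 in 57.1% (39.4 to 73.7), 8.57% (3.21 to 17.7) and 28.9% (21.0 to 37.9) of members, with intervals that do not overlap. Gk, the glycerol kinase, stood at 85.5, 6.59 and 27.9 adjusted CPM. Plin2, a coat protein of lipid droplets, stood at 105, 3.29 and 49.7, the second of which is a single adjusted count. Retreg1, a receptor for turnover of the endoplasmic reticulum, stood at 98.6, 32.9 and 171, and Ssh2, a phosphatase of the actin regulator cofilin, at 223, 56.0 and 151.

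In FLASH, 53 genes (0.905%) were at least 2-fold above both other libraries and 76 (1.3%) below. Adap2 (GRCm38 chr11:80154105-80178958, plus strand), a regulator of ARF6 GTPase, stood at 6.57 adjusted CPM in CONV against 19.8 in CONV AsiDNA and 129 in FLASH. Adap2 was above 0 in 2.86% (0.0723 to 14.9), 8.57% (3.21 to 17.7) and 43.8% (34.8 to 53.1) of members. The interval of FLASH lies above both others, but the gene was picked from these same cells of 1 mouse per condition. Cyba, the p22phox subunit of NADPH oxidase, stood at 6.57, 42.8 and 177 adjusted CPM and was above 0 in 2.86%, 12.9% and 40.5%. Gpx1, a glutathione peroxidase, stood at 92.0, 75.8 and 243. Lpin1, a phosphatidate phosphatase of lipid synthesis, stood at 65.7, 39.5 and 225. Mat2a, which makes S-adenosylmethionine, stood at 519, 583 and 1416. The RNA Lncpint (32.9, 29.6 and 97.5), Asxl2 (19.7, 13.2 and 67.6), Slc25a25 (39.4, 32.9 and 115), Map3k6 (13.1, 32.9 and 89.5) and Srrt (6.57, 26.3 and 71.6) were the others named by the rule.

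Most glucocorticoid-responsive genes compared were higher in FLASH, few of them by 2-fold over CONV AsiDNA. Tsc22d3, the glucocorticoid-induced leucine zipper, stood at 105 adjusted CPM in CONV against 451 in CONV AsiDNA and 959 in FLASH. It was above 0 in 25.7% (12.5 to 43.3), 62.9% (50.5 to 74.1) and 86.0% (78.5 to 91.6) of members, and these 3 intervals do not overlap. Zbtb16, a zinc finger factor, stood at 177, 336 and 527 adjusted CPM. Klf9 stood at 795, 1150 and 1653, and Fkbp5, a co-chaperone of the receptor, was level at 125, 119 and 125. Of 13 genes compared, 11 were lower in CONV than in FLASH (5 at least 2-fold, as were 9.66% of all genes, median log2 ratio -0.80), and 11 were lower in CONV AsiDNA than in FLASH (1 at least 2-fold, as were 3.75% of all genes, median -0.52). For CONV over CONV AsiDNA the median in the members was -0.53. In the other direction, cells outside the gate had a median of 0.60 when CONV was set against CONV AsiDNA and of 0.34 against FLASH. Their median for CONV AsiDNA over FLASH was -0.09. In Col13a1-negative fibroblasts the medians were 0.17, -0.06 and -0.42 in the same order.

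Of 5 clock genes of the phase of Nr1d1 compared, 5 were lower in CONV AsiDNA than in FLASH (0 at least 2-fold, as were 3.75% of all genes, median log2 ratio -0.72) and 4 lower in CONV (1 at least 2-fold, as were 9.66%, median -0.94), so the calls do not set this list off from all genes. Of 4 clock genes of the opposite phase, 3 were lower in CONV AsiDNA (median -0.30) and 3 in CONV (median -0.34) as well. Nr1d1, the clock repressor REV-ERB alpha, stood at 26.3, 95.5 and 199 adjusted CPM in 11.4%, 25.7% and 48.8% of members. The labels and methods do not state the hour at which lungs were taken, and its part in these levels was not tested. Outside the gate the medians of this list were 0.19 for CONV over FLASH and 0.01 for CONV AsiDNA over FLASH.

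Genes low in FLASH included Hhip (GRCm38 chr8:79965851-80058006, minus strand), the decoy receptor of hedgehog ligands and a marker of peribronchial fibroblasts. It stood at 440 adjusted CPM in CONV against 240 in CONV AsiDNA and 51.7 in FLASH, and was above 0 in 68.6% (50.7 to 83.1), 31.4% (20.9 to 43.6) and 11.6% (6.47 to 18.7) of members, with 3 intervals that do not overlap. Col13a1-negative fibroblasts had more of it and no such order, at 1287, 937 and 1402 adjusted CPM. Aspn, an extracellular inhibitor of TGF-beta, stood at 78.9, 109 and 19.9 adjusted CPM, and Serpinf1, the antiangiogenic factor PEDF, at 72.3, 125 and 17.9. Runx1, a transcription factor, stood at 46.0, 105 and 5.97, and Fat1, a large cadherin, at 138, 65.9 and 13.9. Pltp, which transfers phospholipids, stood at 270, 208 and 51.7. Fxyd6 (316, 198 and 65.6), Mecom (125, 95.5 and 25.9) and Mn1 (59.2, 42.8 and 7.96) completed the genes named.

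Targets of p53, the factor that DNA damage switches on, were listed together with senescence genes. In this list, 10 of 15 genes compared were lower in FLASH than in CONV, and 10 of 15 were lower than in CONV AsiDNA. The median log2 ratio was 0.63 for CONV over FLASH, with 5 at least 2-fold higher and 1 lower (6.09% and 9.66% of all genes were). It was 0.78 for CONV AsiDNA over FLASH, with 3 at least 2-fold higher and 2 lower (3.33% and 3.75% of all genes were). For CONV over CONV AsiDNA it was -0.13. With a minimum sum of 50 in place of 20, the median of CONV over FLASH was -0.01. Bax, which opens the mitochondrial membrane in cell death, stood at 105, 122 and 21.9 adjusted CPM. Phlda3, an inhibitor of AKT, stood at 368, 227 and 121, and Mdm2, which degrades p53, at 46.0, 42.8 and 7.96. Cdkn1a, the gene of the cell cycle inhibitor p21, stood at 289, 507 and 290 adjusted CPM and was above 0 in 40.0% (23.9 to 57.9), 45.7% (33.7 to 58.1) and 43.0% (34.0 to 52.3) of members, with intervals that overlap throughout. In Col13a1-negative fibroblasts the list's median was 0.79 for CONV over FLASH and 0.36 for CONV AsiDNA over FLASH.

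**Figure D5:**
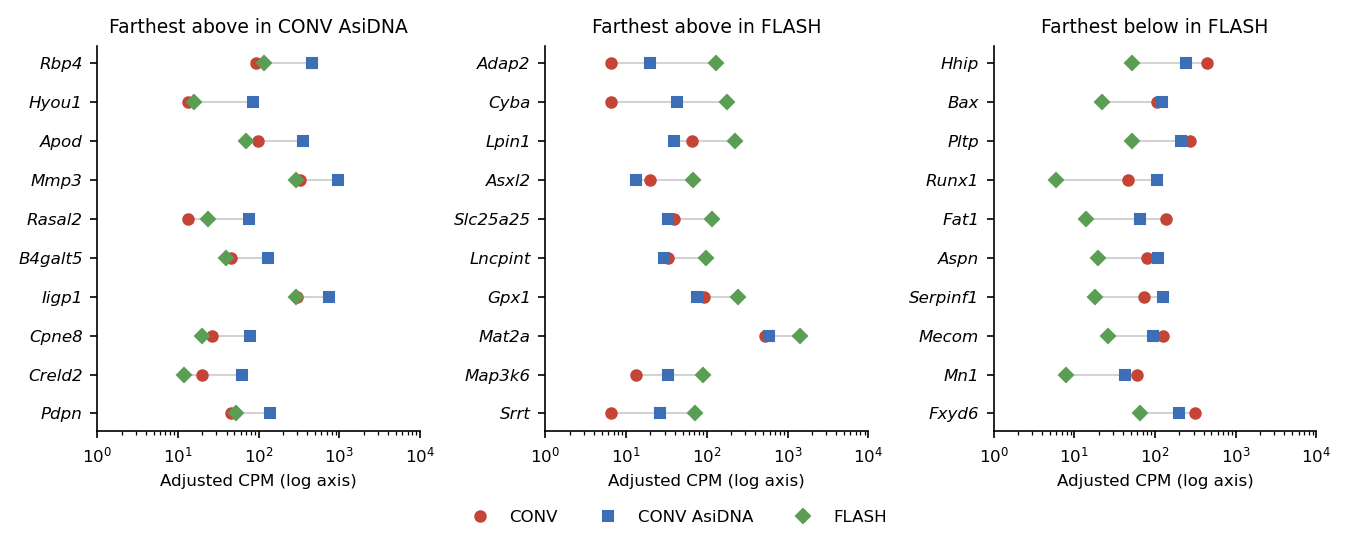
Adjusted CPM (log axis) in each library of the genes farthest above both other libraries in CONV AsiDNA, farthest above in FLASH and farthest below in FLASH. Rbp4 stands at 464 in CONV AsiDNA against 92.0 and 117, Adap2 at 129 in FLASH against 6.57 and 19.8, and Hhip at 51.7 in FLASH against 440 and 240.

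Matrix genes were compared as a list for reference. Of 28 compared, 13 were higher in CONV than in CONV AsiDNA (median log2 ratio -0.07), 21 higher than in FLASH (median 0.34) and 25 higher in CONV AsiDNA than in FLASH (median 0.37). At least 2-fold differences in this list numbered 5 of 28, 2 of 28 and 3 of 28 in that order, against 15.5%, 15.8% and 7.08% of all genes.

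By the share of members above 0, which uses cells and not summed levels, 79 genes had an interval in CONV that lay outside both others. Of these, 44 (0.751%) lay above and 35 (0.597%) below. In CONV AsiDNA 8 (0.137%) lay above and 6 (0.102%) below, and in FLASH 10 (0.171%) above and 25 (0.427%) below.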

How the data were processed

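Lung cells of 3 irradiated mice were encapsulated with the 10x Genomics 3′ chemistry. The submitters' processing notes list Cell Ranger 6.0.0 and mm10, and the methods name R and Seurat. How cells were filtered and values adjusted is not stated there. For each cell and each of 22954 genes, the deposited value is a natural log, taken by the authors of a whole number plus 1. Each value converted back to a whole number within 1e-06 (adjusted count). Summed adjusted counts were between 23383500 and 26417400 per library. No count model or p-value was used, since 1 mouse per condition allows no test.

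Sums over the members were scaled to 1000000. Of the genes, 13120 were above 0 in a member, 5928 had a sum of at least 20, and 5859 of these were above 0 in every library and were compared. Log2 ratios were taken with 10 added. Named genes were the genes of the rule and the markers, members of the lists, and the 10 genes farthest above and below both other libraries by the smaller log2 ratio among those above 0 in at least 25% of members of a library. They also include genes listed at 0 in 1 or 2 libraries and the 10 farthest above and below in Col13a1-positive against Col13a1-negative fibroblasts. The set of 7 interferon-induced genes was picked with its values known. The members and lists were chosen with earlier results of these data known. No doublet caller was run. Gene positions come from GENCODE on GRCm38 and promoter sequences from RefSeq on GRCm38.p6.

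Alternatives changed the pseudocount, the minimum sum, the scaling, the weight of cells, the Col13a1 and gate thresholds, the thinned depth and the members with genes of other lineages. The code of the ranking was run on simulated data as a self-test, which supports no result given here. The series holds 4 further tables with 12 per-sample columns that match no sample of the labels and were not used. Among them are fold changes and p-values of comparisons by the authors, which were not used. Python 3.11.15, numpy 2.4.6, scipy 1.17.1, pandas 2.3.3 and matplotlib 3.10.9 were used.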

Additional observations from a re-analysis of the deposited data

How the results depend on the processing

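No paired analysis was possible because there was 1 mouse per condition, and for the same reason no replicate could be left out. Several summary values moved under an alternative. With Col13a1 of at least 2, the share of members was 0.392% (0.254 to 0.579) in CONV against 0.587% (0.422 to 0.796) in CONV AsiDNA, while FLASH had 1.56% (1.27 to 1.90), so that the intervals of CONV and CONV AsiDNA overlapped, and 94 genes were at least 2-fold lower than in Col13a1-negative fibroblasts in all 3 libraries. With a pseudocount of 1, CONV over CONV AsiDNA had 490 genes higher and 776 lower, and CONV over FLASH had 523 higher and 835 lower. CONV AsiDNA over FLASH then had 357 genes higher and 383 lower. With a minimum sum of 50, the genes at least 2-fold higher and lower were 88 and 317 in CONV relative to CONV AsiDNA, 102 and 322 in CONV relative to FLASH, and 75 and 74 in CONV AsiDNA relative to FLASH. With no minimum sum, the genes higher were 832, 860 and 349 in that order and those lower 592, 600 and 298, so that the split of CONV turned to more genes higher than lower. Thinned to 1000 adjusted counts per member, the genes whose share had an interval apart numbered 23 in CONV against 1 in CONV AsiDNA and 13 in FLASH, and thinned to 500 they numbered 11, 0 and 3. Thinning leaves fewer adjusted counts in each member, and the cause of these changes was not tested for any alternative.

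The median log2 ratio of the immediate early list ranged over the alternatives from -2.15 to -1.12 in CONV relative to CONV AsiDNA and from -2.00 to -1.13 relative to FLASH, and that of the heat shock list from -1.01 to -0.78 and from -1.17 to -0.93. The Wnt list ranged from 0.75 to 0.98 and from 0.47 to 0.91, and in CONV AsiDNA relative to FLASH from -0.15 to 0.24. The other list medians that changed sign under an alternative were as follows. In CONV relative to FLASH they were those of TGF-beta and YAP targets, p53 targets and senescence, lipid storage, and growth factor receptors. In CONV relative to CONV AsiDNA they were those of clock, growth factor receptor, hypoxia and matrix genes. In CONV AsiDNA relative to FLASH they were those of heat shock, immediate early and inflammatory genes. An alternative chosen after seeing the data took Gm42418, AY036118 and mitochondrial genes out of the totals and gave 369 genes higher and 603 lower for CONV over CONV AsiDNA. Low levels in CONV rest on few adjusted counts from 35 cells of 1 mouse.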
